A study of Mus musculus with 55 samples.

Results

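Lungs of 3 mice on the LRD-5001 diet that drank water with 100 ppb sodium arsenite for 5 weeks (replicates C, D and F) were compared with lungs of 4 mice on the same diet that received no arsenite (replicates A, C, E and F). The 7 mice were taken by their sample labels from 55 in the series. All 7 were C57BL/6 males, 6 weeks old when they began 2 weeks on the diet before exposure, and none was injected. Whole lung RNA of each mouse was hybridized to 1 Affymetrix whole-genome mouse array, which reads a transcript with 1 or more probe sets. The values are log2 levels from robust multiarray averaging (RMA), so a difference of 1 is a 2-fold difference, and n counts mice. The labels name each array a biological replicate, and they give no cage, litter or hour of tissue collection.

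Arsenite binds thiol groups of proteins, and cells meet it with glutathione, with antioxidant genes under the factor Nrf2, with metallothioneins and with heat shock proteins, while the liver methylates it for excretion. The lung also keeps its own circadian clock. In it Arntl (BMAL1) pairs with Clock or Npas2 and switches on the Per, Cry and Nr1d genes, which feed back on the pair, and the output genes Dbp, Tef and Hlf. Arntl and Npas2 peak in antiphase to Dbp and the Per genes over a day. The study asked how arsenic at low doses alters immune genes of the lung, and the IL-1 pathway and its receptors belong to that innate defense.

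Alveolar type II transcripts were at like levels in the 7 lungs. Control A also held liver transcripts, and control E held them to a lesser degree. Airway secretory markers varied more, with a list mean from 9.27 in 100 ppb mouse C to 11.45 in control C. Alveolar type I markers averaged between 11.08 and 11.40 in the 7 mice. Endothelial markers averaged 10.51, 10.41 and 10.61 in 100 ppb mice and 10.10, 10.52, 10.52 and 10.54 in controls, with control A lowest. The mean over 11 alveolar type II markers was 12.57, 12.12 and 12.36 in 100 ppb mice C, D and F, against 12.11, 12.26, 12.22 and 12.37 in control mice A, C, E and F. The mean over 15 liver markers was 4.35, 4.45 and 4.38 in the 100 ppb mice, against 10.47, 4.48, 6.14 and 4.68 in the controls. Control A therefore stood far above the other 6 mice, and control E came next. The median liver difference was -2.07, or -0.55 without control A and -0.17 without controls A and E. Alb, which encodes serum albumin, read 4.36, 4.45 and 4.54 in 100 ppb mice and 13.35, 4.50, 8.90 and 5.07 in controls. The heart muscle markers, which in mouse lung also mark the sleeve of the pulmonary vein, averaged 6.13, 8.68 and 7.77 in 100 ppb mice and 11.01, 8.62, 8.42 and 7.92 in controls, with control A highest and 100 ppb mouse C lowest. The 11 fat markers averaged 5.23, 6.85 and 7.14 in 100 ppb mice and 7.80, 8.14, 6.71 and 6.14 in controls, again with 100 ppb mouse C lowest. In whole tissue, fewer cells of a type and less RNA per cell cannot be told apart. The lists and most of the genes that follow are given with control A and without it. Values without control A still include control E.

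**Figure D1:**
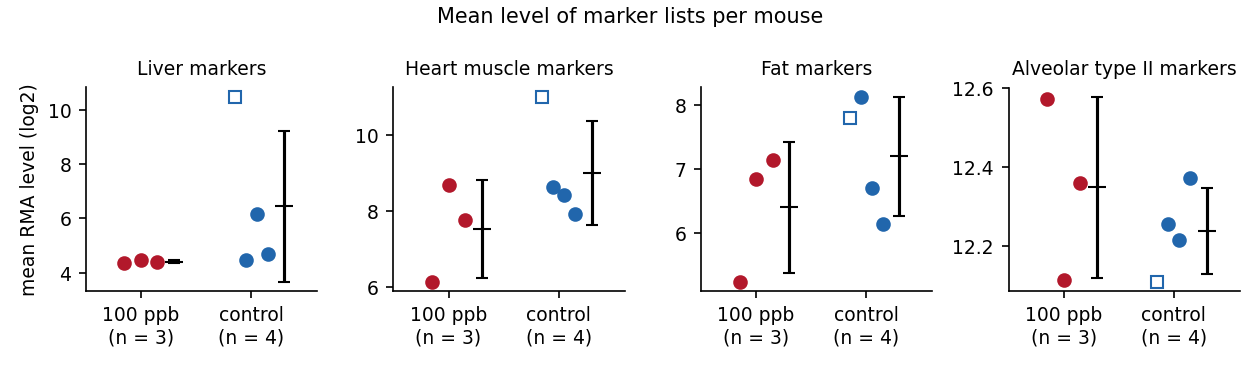
Mean RMA level (log2, vertical axes) over the markers of liver, heart muscle, fat and alveolar type II cells in each lung of 3 mice with 100 ppb arsenite in water (red) and 4 LRD controls (blue, with control A as an open square); the line and bars give the mean and 1 SD. Control A sits at 10.47 for liver markers, while the alveolar type II markers lie between 12.11 and 12.57 in all 7 mice.

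No probe set differed between 100 ppb and control lungs at an adjusted p under 0.05, by limma with Benjamini-Hochberg adjustment over 45037 probe sets (0 called, 0% of those tested). The smallest adjusted p was 0.9997. The test took its spread from 16 LRD mice, these 7 and others given arsenite in food or at a lower dose in water. Fitted to the 7 mice alone, limma gave a smallest adjusted p of 0.3948. The differences described here are therefore measured in these 7 mice and did not pass the test in either fit. Counts by p, p values and SEs of this comparison are from the fit to 16 mice unless stated. At an unadjusted p under 0.05, 1050 probe sets were higher (2.33%) and 543 were lower (1.21%) in 100 ppb mice. With each array centred on its median that split was 1736 higher and 298 lower. All 3 exposed mice lay above all 4 controls at 1333 probe sets (2.96%) and below them at 717 (1.59%). Without control A these counts were 1949 (4.33%) and 1402 (3.11%). With each of 18193 genes read by its brightest probe set, 705 genes (3.88%) lay wholly above and 206 (1.13%) wholly below the controls, and 602 (3.31%) were higher and 202 (1.11%) lower at an unadjusted p under 0.05. Without control A 962 genes (5.29%) lay wholly above and 421 (2.31%) wholly below, and 389 (2.14%) were higher and 194 (1.07%) lower at that p. The median gene differed by 0.02 with all controls and by 0.02 without control A. Control A supplied most of the large differences. Of 165 probe sets lower by more than 1 on the log2 scale, control A was the highest control in 160, and in 153 it stood more than 1 above the next. Without it 38 such probe sets were left, while those higher by more than 1 numbered 8 with it and 6 without.

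Most clock genes stood lower in 100 ppb lungs, and the main activator stood higher. Of 20 clock genes measured, 15 had a lower mean in 100 ppb lungs and 5 a higher one, and the median difference was -0.18, against 0.02 over all genes. All 3 exposed mice lay below all 4 controls in 6 of the 20 and above them in 1, beside 1.13% and 3.88% of all genes. Unadjusted p was under 0.05 in 8 lower genes, beside 1.11% of all genes, and in 1 higher, beside 3.31%. Without control A the median was -0.23, and 8 genes lay wholly below and 2 wholly above, beside 2.31% and 5.29% of all genes without that control. At an unadjusted p under 0.05 there were then 6 lower genes and 1 higher, beside 1.07% and 2.14% of all genes. These counts describe a list chosen with earlier results of these data known.

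Arntl, the core activator of the clock, read 6.79, 6.43 and 6.94 in 100 ppb mice C, D and F, against 5.17, 5.98, 5.82 and 5.65 in control mice A, C, E and F. Every exposed mouse was above every control. The difference was 1.07 (SE 0.34, limma unadjusted p = 0.00588, adjusted p = 0.9997), or 2.1-fold on the scale of the mean log2 values, and it was 0.91 without control A.

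Npas2, which can take the place of Clock beside Arntl, was read by a pair of dim probe sets that disagreed. One (1421037_at) read 4.20, 4.34 and 4.09 in 100 ppb mice and 3.06, 3.17, 3.26 and 3.29 in controls, a difference of 1.02 (SE 0.19, limma unadjusted p = 6.06e-05, the smallest of all probe sets, adjusted p = 0.9997), and 0.97 without control A. The other (1421036_at) read 3.83, 3.89 and 3.96 in 100 ppb mice and 3.50, 3.78, 3.92 and 4.10 in controls, where the groups overlap.

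Dbp, a transcription factor that reads out the clock and binds the D-box, had the widest gap below the controls by one of its probe sets (1418174_at), with 8.42, 8.80 and 8.21 in 100 ppb mice and 9.60, 9.55, 9.67 and 9.89 in controls. The brighter probe set (1438211_s_at) read 8.52, 9.51 and 7.96 in 100 ppb mice and 10.52, 10.06, 10.31 and 9.96 in controls. Neither showed any overlap, and the exposed mice spread more widely than the controls. The brighter one was lower by 1.55 (SE 0.41, limma unadjusted p = 0.00164, adjusted p = 0.9997), or 2.93-fold lower, and by 1.45 without control A. Within the array batches that held mice of both groups the difference was -1.44 (100 ppb C against control F) and -0.68 (100 ppb D against controls C and E).

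Tef and Hlf, relatives of Dbp in the same family of output factors, lay below the controls as well. Tef read 9.25, 9.51 and 9.10 in 100 ppb mice and 9.69, 9.95, 9.97 and 9.91 in controls (difference -0.59, SE 0.17). Hlf read 5.91, 6.56 and 6.21 in 100 ppb mice and 6.90, 7.46, 7.06 and 6.83 in controls (difference -0.84, SE 0.26). In all 3 PAR family genes 100 ppb mouse D was the exposed mouse nearest to the controls. Without control A the differences were -0.65 for Tef and -0.90 for Hlf.

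Among the repressors, Nr1d2 (REV-ERB beta), which silences Arntl, read 9.78, 10.20 and 9.56 in 100 ppb mice and 10.61, 10.40, 10.48 and 10.42 in controls (difference -0.63, SE 0.19, without overlap, and -0.59 without control A). Ciart, another repressor of the Arntl pair, read 4.74, 5.12 and 4.82 in 100 ppb mice and 5.41, 5.59, 5.64 and 5.75 in controls (difference -0.70, SE 0.29, without overlap, and -0.77 without control A). Per3, of the period family, has 6 probe sets, all with a lower mean in 100 ppb mice, by 0.07 to 0.71. Its brightest (1421087_at) read 5.79, 6.13 and 6.26 in 100 ppb mice and 7.20, 6.37, 6.84 and 6.65 in controls, with a narrow gap. Its tightest (1441445_at) read 4.01, 3.98 and 4.12 in 100 ppb mice and 4.75, 4.72, 4.63 and 4.74 in controls (difference -0.67, SE 0.13, limma unadjusted p = 6.89e-05, adjusted p = 0.9997). Only these of its 6 probe sets kept the groups apart, and without control A they differed by -0.56 and -0.66.

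Per1 and Per2 overlapped between groups. Per1 read 8.49, 7.05 and 7.24 in 100 ppb mice and 8.33, 8.24, 8.40 and 8.55 in controls, so 100 ppb mouse C stood among the controls and the other two far below. Per2 read 4.52, 5.31 and 4.86 in 100 ppb mice and 6.30, 5.66, 6.15 and 5.04 in controls (difference -0.89, -0.72 without control A). Other parts of the loop differed little in the mean: 0.13 for Clock, -0.15 for Nr1d1, -0.20 for Cry1 and -0.17 for Cry2. Nfil3, a repressor at the D-box, had a mean difference of 0.49 with overlapping groups. Wee1, a kinase that holds back entry into mitosis and is under the clock in mouse liver, read 7.17, 7.02 and 7.15 in 100 ppb mice and 7.60, 7.34, 7.41 and 7.42 in controls, a difference of -0.33 without overlap (-0.28 without control A). Since clock transcripts swing over a day and the hour of collection is not given in the sources used here, the part that hour had in these differences was not tested.

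**Figure D2:**
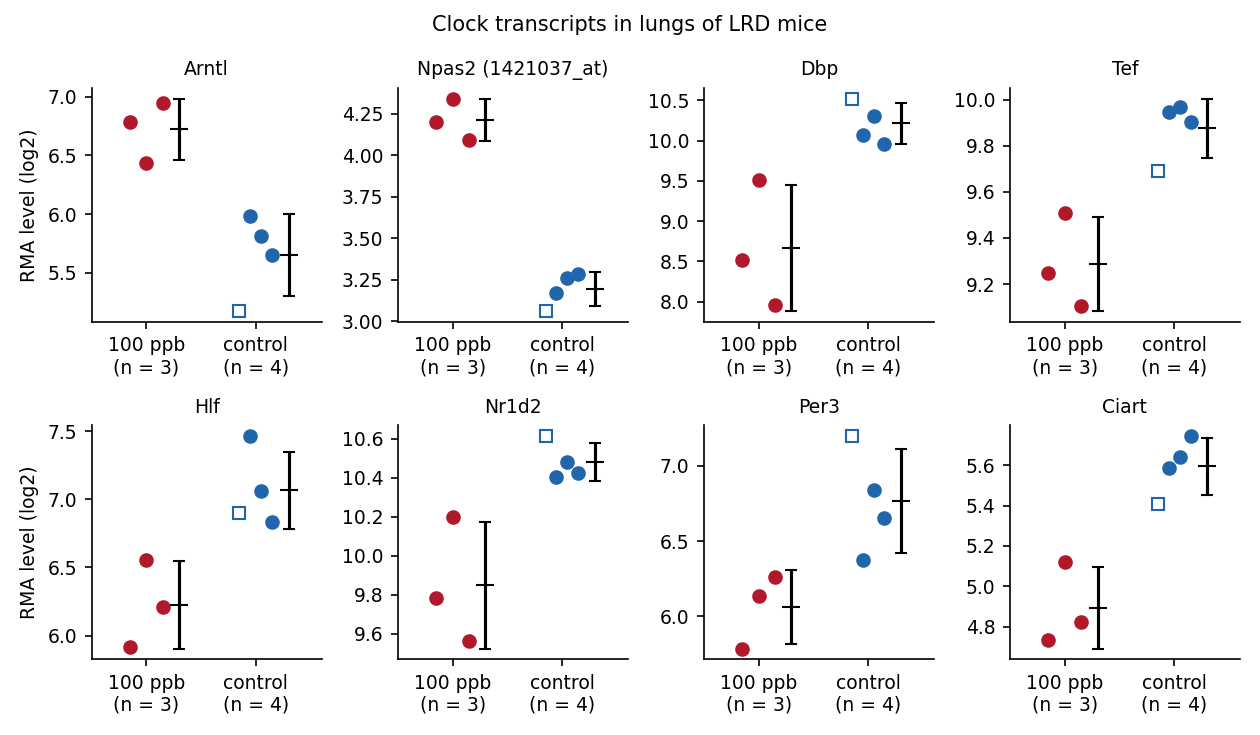
RMA level (log2, vertical axes) of 8 clock transcripts in each lung of 3 mice with 100 ppb arsenite in water (red) and 4 LRD controls (blue, with control A as an open square); the line and bars give the mean and 1 SD. Arntl and one Npas2 probe set lie above the controls in all 3 exposed mice, and the other 6 transcripts lie below them.

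The promoters of these genes are shown because the clock acts through short DNA elements. The E-box searched was CACGTG, which reads the same on both strands, and the D-box was TTANGTAA on either strand. In the 250 bases before each RefSeq transcription start (GRCm38.p6), the E-box was in 6.02% of all 32851 windows (1978) and the D-box in 2.06% (677). Of the 21 listed clock genes and Wee1, 17 had 25 windows, and the E-box was in 6 of the 25, from Bhlhe41, Ciart, Cry1, Per1 and Tef, and the D-box in 1, from Per3. Both starts of Tef held an E-box, Ciart held 3 that do not overlap, and Per3 held 2 D-boxes. The stretches are printed 5' to 3' in the direction of the gene, with the element in capitals. The Tef stretches lie at chr15:81802501-81802596 and chr15:81811231-81811326 on the plus strand, with the element 127 and 138 bases before the start. The Per1 stretch lies at chr11:69098738-69098833 (plus strand, 166 bases before), that of Ciart at chr3:95882229-95882389 (minus strand, 116, 58 and 44 bases before) and that of Per3 at chr4:151044771-151044915 (minus strand, 205 and 158 bases before). A match of letters does not show that a factor binds there.
Tef, upstream start: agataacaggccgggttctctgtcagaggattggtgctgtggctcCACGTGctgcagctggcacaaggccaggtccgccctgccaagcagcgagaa
Tef, downstream start: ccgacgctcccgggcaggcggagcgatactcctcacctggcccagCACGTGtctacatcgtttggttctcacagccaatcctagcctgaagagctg
Per1: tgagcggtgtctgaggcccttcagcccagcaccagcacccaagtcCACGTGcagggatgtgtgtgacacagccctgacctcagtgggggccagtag
Ciart: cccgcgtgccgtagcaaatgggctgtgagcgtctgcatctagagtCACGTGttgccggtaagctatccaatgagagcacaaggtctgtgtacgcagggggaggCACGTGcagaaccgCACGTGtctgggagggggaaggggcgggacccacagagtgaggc
Per3: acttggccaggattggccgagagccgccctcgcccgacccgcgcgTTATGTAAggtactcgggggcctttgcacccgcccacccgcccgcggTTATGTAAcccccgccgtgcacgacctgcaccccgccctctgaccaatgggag

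The largest mean difference in stress genes was in the inducible HSP70 pair, chaperones that heat and metals can switch on. Their mean was lower in 100 ppb lungs. Hspa1b (1427126_at) read 7.76, 7.74 and 7.27 in 100 ppb mice and 11.46, 8.06, 9.23 and 9.59 in controls. The controls alone spanned a range of more than 3 on the log2 scale, with control A highest and control C close to the exposed mice. The difference was -1.99 (SE 0.67, limma unadjusted p = 0.00879, adjusted p = 0.9997), and -1.37 without control A. Hspa1a read 7.51, 6.95 and 6.83 in 100 ppb mice and 10.77, 7.26, 8.46 and 8.86 in controls, a difference of -1.74, and -1.10 without control A. Its groups overlapped, with 100 ppb mouse C above control C. Both genes are near-identical copies, and probes may not tell them apart. Of 14 heat shock genes measured 13 had a lower mean, with a median of -0.17, but without control A 5 were higher, 9 were lower and the median was -0.03. Read by their brightest probe sets, none of the 14 lay wholly below the controls, with or without control A. The Hspa1b probe set given above, which did, was among those picked for a wide gap. Dnaja1, a co-chaperone of HSP70, differed by -0.52 with control A and -0.27 without, and the constitutive Hspa8 by -0.06 and 0.04.

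In the innate immune lists single genes stood above the controls, while the lists as a whole differed little. Il1b, the inflammatory cytokine IL-1 beta, read 8.89, 9.04 and 8.99 in 100 ppb mice and 7.98, 7.48, 8.63 and 7.79 in controls. All exposed mice were above all controls, the nearest being control E. The difference was 1.00 (SE 0.45, limma unadjusted p = 0.0419, adjusted p = 0.9997), or 2-fold, it was also 1.00 without control A (limma unadjusted p = 0.06), and it was 1.10 and 0.98 within the shared array batches. Myd88, the adaptor of the IL-1 and toll-like receptors, read 9.04, 8.81 and 9.09 in 100 ppb mice and 8.55, 8.57, 8.57 and 8.79 in controls (difference 0.36, SE 0.12, and 0.34 without control A), so that 100 ppb mouse D lay just above control F. Il1rn, the natural antagonist of the IL-1 receptor, read 5.99, 5.99 and 5.81 in 100 ppb mice and 6.12, 6.11, 6.39 and 6.14 in controls (difference -0.26, SE 0.19, and -0.28 without control A), without overlap. Of 35 genes of IL-1 and toll-like receptor signaling, 25 had a higher mean and 10 a lower one, 3 lay wholly above and 1 wholly below the controls (3.88% and 1.13% of all genes), 2 were higher at an unadjusted p under 0.05 (3.31% of all genes), and the median was 0.08 (0.07 without control A). The 2 are near the share over all genes, and without control A 1 was left, beside 2.14% of all genes. The receptors themselves differed little: 0.09 for both Il1r1 and Il1r2, 0.23 for Tlr2 and -0.05 for Tlr4. Other genes measured one by one in the study also overlapped between groups, with differences of -0.01 for Tnf, 0.00 for Traf6, -0.07 for Nfkbia, -0.05 for Adam10 and -0.20 for Scn3b. The study measured mice on the AIN-76A diet with arrays, and with PCR for Adam10, Scn3b, Il1b and Il1r2. It measured the products of Il1b, Tnf, Traf6, Nfkbia and Myd88 as protein in separate mice. The study reported lower Il1b at both water doses, on arrays and as protein. By array it also reported lower Myd88 and Traf6 from 10 ppb upward, opposite to the higher Myd88 here. Protein of both was significantly lower at 100 ppb only. Protein of Tnf and Nfkbia was higher at both doses. Diet, mice and in part the measure differ from those here.

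Receptors for cytokines and chemokines were higher in the mean in 26 of 38 genes, with 7 higher and 1 lower at an unadjusted p under 0.05, beside 3.31% and 1.11% of all genes, 4 wholly above the controls, beside 3.88%, and a median of 0.08 (0.10 without control A). Without control A 3 higher and none lower had such a p, beside 2.14% and 1.07% of all genes. Csf3r, the G-CSF receptor of neutrophils, read 7.30, 7.67 and 8.06 in 100 ppb mice and 6.78, 6.72, 7.10 and 6.46 in controls (difference 0.91, SE 0.39, and 0.92 without control A), without overlap. Tnfrsf1b, a receptor for TNF on leukocytes, read 7.65, 7.71 and 7.88 in 100 ppb mice and 7.20, 7.49, 7.22 and 7.42 in controls (difference 0.42, SE 0.17, and 0.37 without control A), also without overlap. The others at that p were Il2rb, of the IL-2 receptor (difference 0.53, and 0.40 without control A), the fractalkine receptor Cx3cr1 (0.59 and 0.49), Il6ra, of the IL-6 receptor (0.70 and 0.65), and the chemokine receptors Ccr2 (0.51 and 0.42) and Ccr1 (0.72 and 0.76). Without control A the unadjusted limma p was above 0.05 for Il6ra (0.0519), Ccr2 (0.113), Ccr1 (0.0578) and Tnfrsf1b (0.0675).

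Most markers of neutrophils and platelets also had a higher mean, with groups that overlapped in the mean level of each list. Of 15 neutrophil markers 14 had a higher mean, with a median of 0.46 (0.35 without control A). Wholly above the controls lay 6, beside 3.88% of all genes, and 1 was higher at an unadjusted p under 0.05, beside 3.31%. Their mean level was 6.73, 6.96 and 7.46 in 100 ppb mice and 6.39, 6.32, 6.95 and 6.66 in controls, so control E lay among the exposed mice. In LRD mice given 10 ppb arsenite the median difference of these markers from controls was 0.541 for food and 0.141 for water. Food mice B to F averaged 6.131, 7.896, 7.811, 6.914 and 7.035, so C and D stood above every 100 ppb mouse. S100a9, a subunit of the neutrophil protein calprotectin, read 11.18, 11.43 and 11.97 in 100 ppb mice and 9.97, 9.97, 10.98 and 10.81 in controls (difference 1.09, SE 0.52, and 0.94 without control A), and its partner S100a8 differed by 1.06 with a narrow gap. The granule genes Camp and Ngp, made in immature neutrophils, differed by 0.13 and -0.08 with overlapping groups. All 8 platelet markers had a higher mean, with 1 wholly above the controls, 2 at an unadjusted p under 0.05, beside 3.88% and 3.31% of all genes, and a median of 0.40 (0.31 without control A), and their mean level was 7.96, 8.04 and 8.45 in 100 ppb mice and 7.51, 7.33, 8.20 and 7.74 in controls. Gp5, a subunit of the platelet receptor for von Willebrand factor, differed by 0.56. The part of these cells in the Il1b and receptor differences was not tested.

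The immediate early genes, which answer stimuli without new protein synthesis, were mixed. Junb, a subunit of AP-1, read 8.63, 8.60 and 8.32 in 100 ppb mice and 7.94, 7.76, 7.27 and 7.37 in controls (difference 0.93, SE 0.28, limma unadjusted p = 0.00395, adjusted p = 0.9997), without overlap, and it was 1.05 without control A. Ier2 read 9.63, 9.64 and 9.37 in 100 ppb mice and 9.39, 8.93, 8.83 and 8.58 in controls, with control A level with the lowest exposed mouse, and its difference was 0.62 with and 0.77 without that control. Egr1, a zinc finger factor, read 12.01, 11.15 and 11.09 in 100 ppb mice and 11.39, 10.40, 10.59 and 9.95 in controls. Fos differed by 0.18 and Fosb by 0.40, and in both 100 ppb mouse C was the highest of the 7. Of 23 such genes 12 had a higher mean, 3 of them at an unadjusted p under 0.05, beside 3.31% of all genes, and the median was 0.05, or 0.25 without control A. The count wholly above the controls was 1 with control A and 4 without it, beside 3.88% and 5.29% of all genes.

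**Figure D3:**
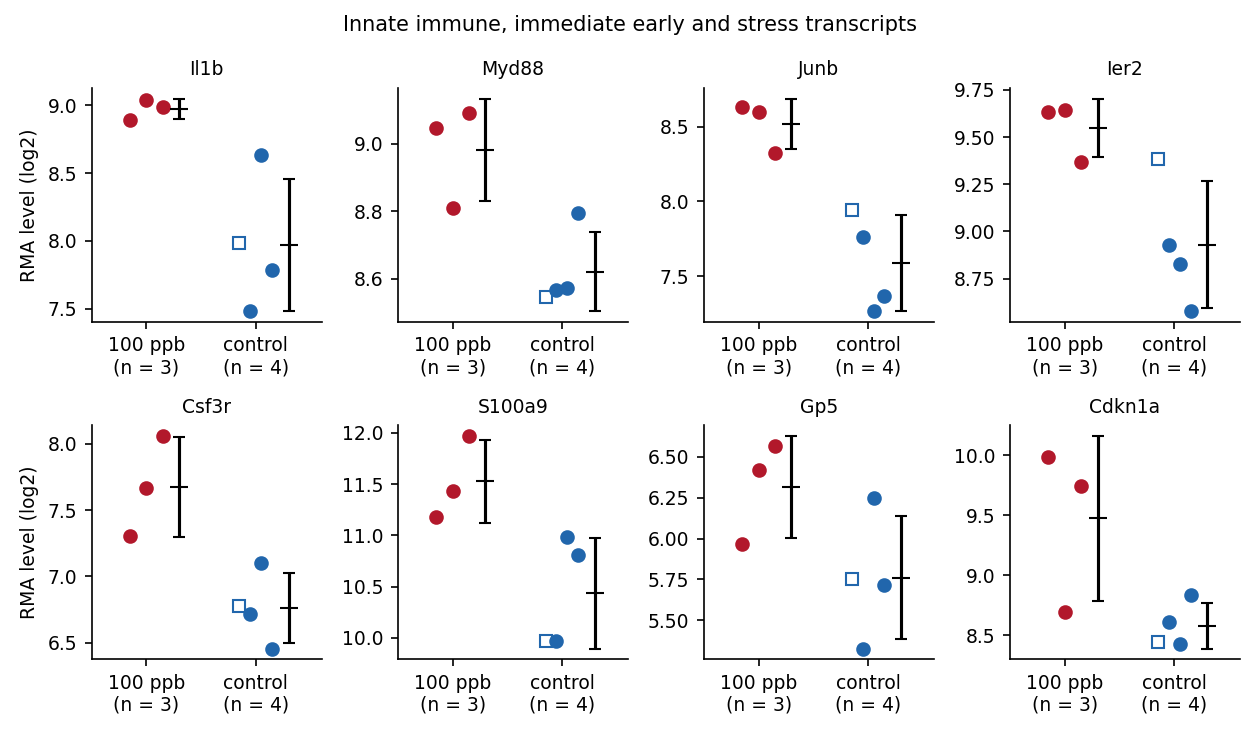
RMA level (log2, vertical axes) of 8 immune, immediate early and stress transcripts in each lung of 3 mice with 100 ppb arsenite in water (red) and 4 LRD controls (blue, with control A as an open square); the line and bars give the mean and 1 SD. Il1b, Myd88, Junb, Csf3r and S100a9 lie above every control in all 3 exposed mice, while Ier2, Gp5 and Cdkn1a overlap.

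Among genes that handle arsenic and metals the sign of the list medians turned when control A was left out. As3mt, which methylates arsenic, read 6.75, 7.39 and 7.11 in 100 ppb mice and 7.14, 7.25, 7.23 and 6.59 in controls, a difference of 0.03. Of 17 genes of arsenic methylation and transport 7 had a higher and 10 a lower mean, none was wholly above or below the controls or under an unadjusted p of 0.05, and the median was -0.04. Without control A 11 were higher and 6 lower, the median was 0.04, and 2 lay wholly above, beside 5.29% of all genes. At that p 1 was then higher and 1 lower, beside 2.14% and 1.07% of all genes. Of 10 metallothionein and zinc genes 4 were higher and 6 lower with a median of -0.05, and without control A 6 were higher and 4 lower with a median of 0.01, and none kept the groups apart in either case. Mt1, which binds heavy metals, read 11.08, 10.00 and 10.29 in 100 ppb mice and 10.22, 10.20, 9.83 and 10.41 in controls, with 100 ppb mouse C highest. Of 21 Nrf2 antioxidant genes 10 were higher and 11 lower in the mean with a median of -0.01, and without control A 11 were higher and 10 lower with a median of 0.02. In both cases 3 lay wholly above and 1 wholly below the controls, beside 3.88% and 1.13% of all genes with control A and 5.29% and 2.31% without. Keap1, which holds Nrf2 back, read 8.65, 8.80 and 8.58 in 100 ppb mice and 8.19, 8.34, 8.21 and 8.52 in controls (difference 0.36, SE 0.12, and 0.32 without control A), and Hmox1, which degrades heme, differed by 0.24 with overlap (0.10 without control A). Cdkn1a (p21), which stops the cell cycle, read 9.99, 8.69 and 9.75 in 100 ppb mice and 8.44, 8.61, 8.43 and 8.84 in controls (difference 0.90, SE 0.30, and 0.85 without control A), with 100 ppb mouse D among the controls. Of 17 p53 and DNA damage genes 13 had a higher mean, with a median of 0.07 and 1 at an unadjusted p under 0.05, beside 3.31% of all genes. Without control A the median was 0.11 and 1 gene lay wholly above the controls, beside 5.29% of all genes.

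The genes with the widest gap between groups, taken 15 in each direction among probe sets above 6 in the higher group, are given as a description with no test. Among the 15 above the controls Arntl had the largest mean difference, 1.07. Junb and Spon2, a secreted matrix protein that binds microbes, followed by that measure at 0.93 and 0.91. Spon2 read 7.46, 6.71 and 7.24 in 100 ppb mice and 6.07, 6.29, 6.14 and 6.41 in controls. Gjb6, the gap junction protein connexin 30, differed by 0.78. Matrix and its enzymes were among them, with 0.69 each for Emilin2, a glycoprotein of elastic fibers, and Mmp9 (1448291_at), a gelatinase stored in neutrophils. Regulators included Dusp3, a phosphatase of MAP kinases (0.72), Mafg, a small Maf partner of Nrf2 (0.64), Irx5, a homeobox factor (0.46), and Zfp771, a zinc finger protein (0.56). Mical1, which takes apart actin filaments, differed by 0.67, and Marcksl1, an actin-binding kinase substrate, by 0.50. Acoxl, an acyl-CoA oxidase-like protein, read 9.90, 9.81 and 9.91 in 100 ppb mice and 9.11, 9.30, 9.19 and 9.39 in controls, the tightest of these at a high level. Vps53, of the tethering complex for transport to the Golgi, and Tmem101 differed by 0.50 and 0.51.

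Below the controls 5 of the 15 were the clock genes and clock output Dbp, Hlf, Nr1d2, Tef and Wee1. The next were genes in which control A was the highest mouse. Hamp, which encodes the iron hormone hepcidin, read 5.67, 7.02 and 6.69 in 100 ppb mice and 9.53, 7.47, 7.33 and 7.24 in controls, a difference of -1.43, or -0.89 without control A. Dgat2, which makes triglyceride, differed by -0.79 (-0.60 without control A), Fitm1, of lipid droplet formation, by -0.62 (-0.41) and Hspa1b as given above. Small, tight gaps made up the rest. Herpud1, of the degradation of proteins at the endoplasmic reticulum, read 10.47, 10.51 and 10.48 in 100 ppb mice and 10.72, 10.75, 10.85 and 10.64 in controls (difference -0.25). Differences of like size were seen for Slc25a5, the mitochondrial ADP/ATP carrier (-0.29), Fbxo30, a ubiquitin ligase subunit (-0.37), Rab23, a small GTPase (-0.25), Hspa4l by 1 of its probe sets (1439093_at, -0.21) and Il1rn.

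**Figure D4:**
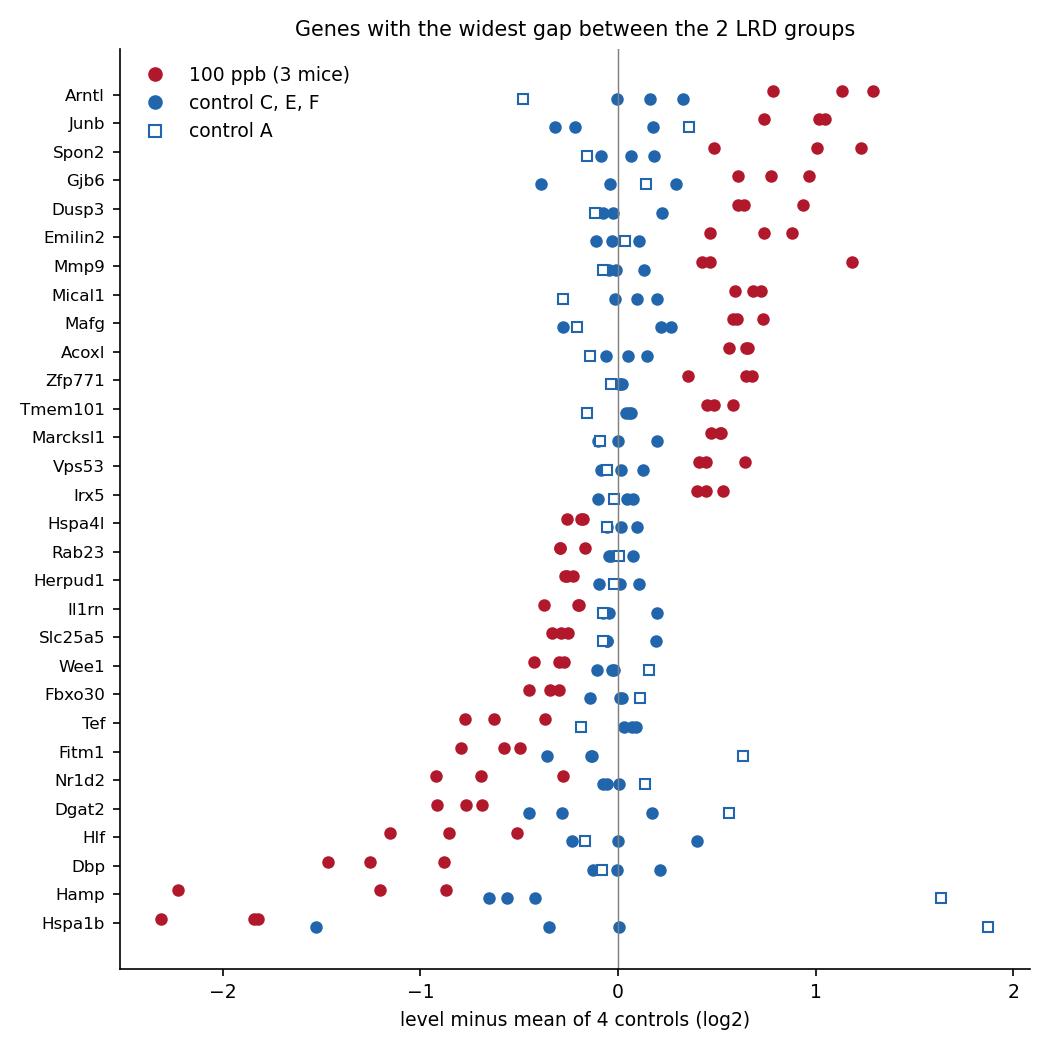
Level of each mouse minus the mean of the 4 LRD controls (log2, horizontal axis) for the 15 genes with the widest gap above and the 15 with the widest gap below the controls, for 3 mice with 100 ppb arsenite in water (red), controls C, E and F (blue) and control A (open square). In Hspa1b, Hamp, Dgat2 and Fitm1 control A stands apart to the right, and in Arntl it is the lowest control.

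Ranking by rank product, the method of the study, put tissue markers first among lower genes when control A was kept: Alb, Ttr, Nppa, Hspa1b and Adipoq. Without control A they were Adipoq, Car3, Dbp, Hspa1b and Nppa. Adipoq, the fat hormone adiponectin, read 3.99, 8.34 and 7.70 in 100 ppb mice and 9.98, 9.68, 8.96 and 7.06 in controls. Nppa, the atrial hormone ANP, read 3.75, 8.02 and 6.30 in 100 ppb mice and 13.48, 8.40, 7.35 and 7.63 in controls. In both the lowest mouse was 100 ppb mouse C. Among higher genes the best ranks were Arntl, Npas2, Prg4, S100a8 and S100a9, and without control A Egr1, Junb, Npas2, Prg4 and Slfn4. Prg4, a lubricating proteoglycan, read 7.81, 5.39 and 3.94 in 100 ppb mice and 4.96, 4.51, 4.41 and 3.86 in controls, so its rank rested on 100 ppb mouse C.

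Against the 10 ppb water group of the same diet (4 mice used of 5, since 1 array was of low quality) the 100 ppb mice differed at no probe set at an adjusted p under 0.05 (0 called, 0%, smallest adjusted p 0.9992). Unadjusted, 844 probe sets were higher (1.87%) and 549 lower (1.22%). Those counts moved with single mice: they were 1716 and 1053 without 10 ppb mouse B, 1270 and 850 without 100 ppb mouse D, and 531 and 395 without 10 ppb mouse D. Dbp (1438211_s_at) averaged 10.21 ± 0.25 in controls (SD, n = 4), 9.95 ± 0.51 at 10 ppb (n = 4) and 8.66 ± 0.78 at 100 ppb (n = 3). Arntl averaged 5.65 ± 0.35 in controls, 6.00 ± 0.74 at 10 ppb and 6.72 ± 0.26 at 100 ppb, with the same n. The 10 ppb mice read 10.22, 10.07, 10.30 and 9.20 for Dbp and 5.92, 5.07, 6.17 and 6.87 for Arntl, so mouse E of that group, lowest for Dbp and highest for Arntl, lay among the 100 ppb mice for both. The difference between 100 and 10 ppb was -1.29 for Dbp (limma unadjusted p = 0.00651, adjusted p = 0.9992) and 0.72 for Arntl (limma unadjusted p = 0.0488). Il1b averaged 7.97 ± 0.49 in controls, 8.30 ± 0.85 at 10 ppb and 8.97 ± 0.08 at 100 ppb. The span of 1 SD around the 10 ppb mean takes in the control mean and the 100 ppb mean. Hspa1b (1427126_at) averaged 8.12 ± 1.19 at 10 ppb, where mouse B read 9.89, among the controls. Over the 20 clock genes the median difference from controls was -0.064 at 10 ppb in water. In 5 LRD mice with 10 ppb arsenite in food it was -0.168, beside -0.185 at 100 ppb in water. The mean level of the clock list was 7.391, 7.138, 7.027, 7.261 and 7.175 in food mice B to F. Controls read 7.372, 7.378, 7.429 and 7.3, and 100 ppb mice 7.029, 7.193 and 7.037. Food mice C to F and 10 ppb water mouse E (7.133) thus lay below every control, as the 100 ppb mice did.

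The 5 genes with the smallest p in each direction of this dose comparison were mostly dim. Higher at 100 ppb were Wdcp (0.57), Slc2a6, a sugar transporter (0.59), Pigt, of GPI anchor transfer (0.42), Fbxw2, a ubiquitin ligase subunit (0.50), and Agfg2 (0.47). Slc2a6 read 4.51, 4.26 and 4.27 at 100 ppb and averaged 3.76 at 10 ppb. Lower were Rwdd3, an enhancer of SUMO conjugation (-0.44), Orc3, of the origin recognition complex (-0.47), Cpd, a carboxypeptidase (-0.59), Zfp78 (-0.51) and Slc43a1, an amino acid transporter (-0.47). Of these 10 genes Cpd alone read above 6, with 8.10, 7.97 and 8.34 at 100 ppb and a mean of 8.73 at 10 ppb.

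The same dose in mice on the AIN-76A diet (3 mice used of 4, against 5 controls) was set beside the LRD comparison by the difference of the 2 effects. Dbp averaged 8.58 ± 0.11 in AIN-76A 100 ppb mice (SD, n = 3) and 8.41 ± 0.48 in AIN-76A controls (n = 5). The LRD 100 ppb mean of 8.66 was thus near both AIN-76A groups, and the LRD control mean of 10.21 stood apart from the other 3. Arntl averaged 6.77 ± 0.25 in AIN-76A 100 ppb mice and 6.99 ± 0.31 in AIN-76A controls, again near the LRD 100 ppb mean of 6.72. The difference of effects, LRD minus AIN-76A, was -1.72 for Dbp (SE 0.43, limma unadjusted p = 0.0011, adjusted p = 0.9999) and 1.28 for Arntl (SE 0.29, limma unadjusted p = 0.000502, adjusted p = 0.9999). Over the 20 clock genes the median difference of effects was -0.45, with a median of 0.13 for the AIN-76A effect alone. The difference in level between the controls of the 2 diets was not tested.

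The Il1b means ran in opposite directions on the 2 diets. Il1b averaged 8.61 ± 1.96 in AIN-76A 100 ppb mice and 9.78 ± 0.95 in AIN-76A controls, a wide spread over which the effect was -1.17, and the difference of effects was 2.17 (SE 0.95, limma unadjusted p = 0.0373, adjusted p = 0.9999). Neutrophil markers spread as widely in AIN-76A mice, from 6.87 to 10.05 in 100 ppb mice and from 6.10 to 9.07 in controls. Their part in the Il1b values was not tested. Across all probe sets 0 (0%) passed an adjusted p under 0.05 for the difference of effects, and unadjusted 710 were higher (1.58%) and 528 lower (1.17%), or 1143 and 715 without AIN-76A 100 ppb mouse D. The smallest p belonged to Dtwd2 (difference of effects 0.76), Sema4c, a semaphorin (0.81), Amz1, a metalloprotease (1.17), Arntl and Ints7, of the Integrator complex (0.55), and, in the other direction, to Emsy (-0.64), Kcns2, a potassium channel subunit (-0.62), Gsg1 (-0.62), Cryaa, a lens chaperone (-0.59), and Dbp. Amz1 read 5.84, 5.57 and 5.91 in LRD 100 ppb mice and 5.19, 4.85, 4.98 and 5.03 in LRD controls. It alone reached an adjusted p of 0.0178 (limma) when AIN-76A 100 ppb mouse D was left out, the only setting with any call.

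**Figure D5:**
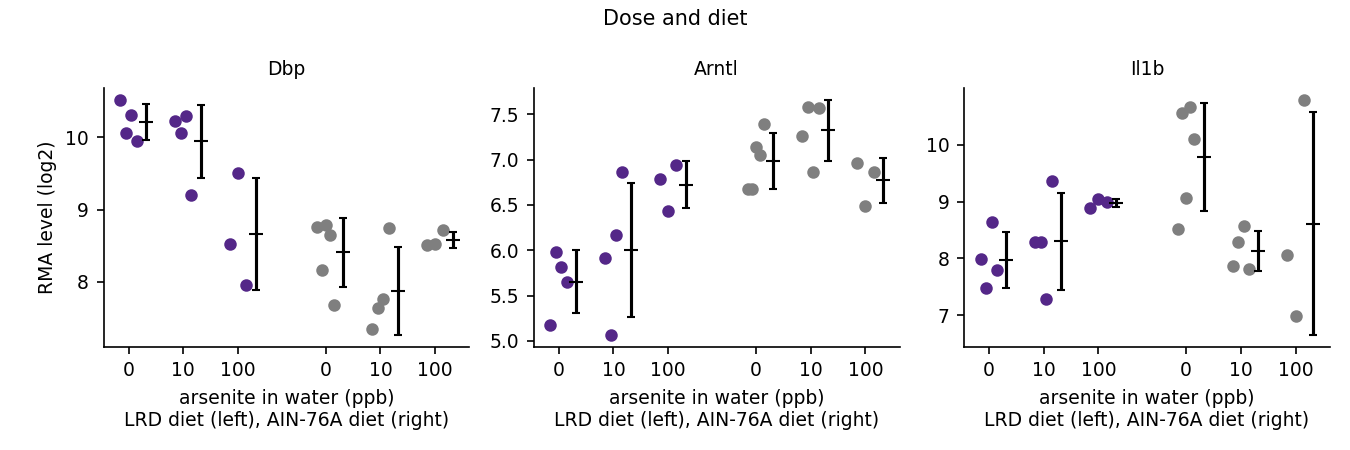
RMA level (log2, vertical axes) of Dbp, Arntl and Il1b in each mouse by arsenite in water (ppb, horizontal axes), for the LRD diet (purple, left) and the AIN-76A diet (gray, right); the line and bars give the mean and 1 SD. For Dbp and Arntl the LRD 100 ppb means of 8.66 and 6.72 lie near the AIN-76A means, and the LRD control means of 10.21 and 5.65 lie apart.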

How the data were processed

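The authors deposited log2 levels made from the raw arrays by RMA, with no version given in the sources used here. The raw arrays were not used. Of 45101 probe sets 64 controls were dropped, leaving 45037, of which 34945 carry 1 gene symbol, 932 several and 9160 none in the platform annotation. Mice were grouped by their labels. One linear model (limma 3.58.1, R 4.3.3, two-sided moderated test, Benjamini-Hochberg adjustment) was fitted to 16 LRD mice in 4 groups. The groups were the controls, each arsenite dose in water and arsenite in food, and all share an estimate of the spread. Another such model was fitted to 15 mice on both diets for the difference of effects. The rank product of the study's methods was used for ranks only. An adjusted p under 0.05 was the threshold. The dose and diet comparisons share mice with the main one. Tables were made with Python 3.11.15. The fit was also run on simulated arrays with independent noise, no batch effect and no mouse like control A. That run cannot show how the fit performs on these data.

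Named genes carry 1 symbol and are read by their brightest probe set unless another is given. They were the 15 with the widest gap in each direction among probe sets above 6, the 5 best ranks by rank product with and without control A, members of the 48 gene lists with the smallest p or that define a list, the 5 with the smallest p in each direction of the other comparisons, and genes the study measured singly. Members, lists and rules were chosen with earlier results of these data known. An array batch here means arrays whose raw file names share a prefix, 5 in all. Among the 7 mice, control A (batch 2) and 100 ppb mouse F (batch 3) had no mouse of the other group in their batch. Group and batch can thus be told apart only in part. Replicate letters did not pair mice: deviations from the group mean correlated with a median of -0.035 over 14 pairs with the same letter and 0.012 over 81 others, against 0.199 over 16 pairs of the same batch. Columns had SDs from 2.31 to 2.40 and pairwise correlations from 0.974 to 0.994 over the 7 mice, and none were identical. The Gapdh 3' minus 5' difference, a sign of RNA quality, was 0.438 to 0.859 in 100 ppb mice and 0.102 to 0.75 in controls. That of actin was 0.807 to 1.329 in 100 ppb mice and 0.656 to 1.041 in controls. In both measures the ranges overlapped and reached higher in 100 ppb mice. Precision is limited by the number of mice. Alternatives changed the filter, the normalization, the variance model, batch and replicate blocks and the mice included.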

Additional observations from a re-analysis of the deposited data

Results flagged for a closer look

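In 11 of 174 values tested over the 4 LRD controls, a single control lay far from the other 3 by Dixon's test, which chance alone passes in about 1 in 20 groups, and in 4 of the 11 that mouse was control A. Control A was highest for Hamp, at 9.526 with the others from 7.241 to 7.47, and for the mean of the complement and acute phase list, at 7.73 with the others from 7.162 to 7.241. It was lowest for Tmem101, at 5.618 with the others from 5.815 to 5.843, and for the mean of the endothelial markers, at 10.098 with the others from 10.517 to 10.537. Control F was lowest for As3mt at 6.59 (others 7.14 to 7.246), for Clock at 7.142 (others 7.825 to 7.89) and for the mean of the monocyte and macrophage markers at 8.399 (others 8.608 to 8.63). It was highest for Myd88 at 8.795 (others 8.547 to 8.574) and for Slc25a5 at 7.579 (others 7.312 to 7.331). Control E was highest for Il1rn at 6.388 (others 6.111 to 6.144) and for the mean of the cytokine and chemokine list at 6.181 (others 6.005 to 6.035).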

How the results depend on the processing

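No setting gave a call at an adjusted p under 0.05 (limma) in the comparison of 100 ppb with control or with 10 ppb, and 1 did for the difference between diets, Amz1 without AIN-76A 100 ppb mouse D. When 1 mouse was left out the adjusted calls for that difference thus ranged from 0 to 1. Counts at an unadjusted p under 0.05 moved by over 1.5 times in the comparison of 100 ppb with control. Against 1050 higher and 543 lower of 45037, they were 624 and 127 of 20382 with dim probe sets left out. With 1 probe set per gene they were 577 and 194 of 18193. Those settings tested fewer probe sets, so their raw counts do not compare directly with the main ones. The counts were 2122 and 1296 with array weights, 1736 and 298 with median centring, and 596 and 337 with the low-quality array kept. They were 574 and 379 with the replicate block, although the letters do not pair the mice. With the array batch block 854 were lower, or 852 with control A left out as well, an alternative chosen after seeing the data. Leaving out 1 mouse gave from 721 (without 100 ppb mouse F) to 1550 (without control F) higher and from 353 (without 100 ppb mouse F) to 1305 (without control F) lower. In the comparison with 10 ppb (844 higher and 549 lower) the counts were 261 and 220 of 20382 tested with dim probe sets left out. They were 539 and 573 with the array batch block, 319 and 255 with the replicate block, 465 and 402 with the low-quality array kept, and 1917 and 1289 with array weights. For the difference between diets (710 and 528) they were 369 and 71 of 20366 tested with dim probe sets left out. They were 1022 and 316 with median centring, and 1317 and 793 with the array batch block. The cause was not tested. Of the differences at 126 named probe sets 1 was labelled reversed, Slc43a1, at 0.024 within array batch 1. That label does not count every change of sign. Bpifa1 went from -0.897 to 1.182 within array batch 4, and Camp from 0.129 to -1.338 within array batch 1, and both are counted as moved. Of 2597 alternative values for the 126 probe sets 2532 stayed within the spread between replicates and 64 moved beyond it. Of 192 alternative list medians 9 moved. The number of mice, 3 against 4, limits every comparison, and levels under 5 are dim.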

Other observations

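Several lists that belong to no comparison above are given as values. Of 12 airway secretory markers 10 had a lower mean in 100 ppb lungs, with a median of -0.23 (-0.17 without control A). Reg3g, an antimicrobial lectin, read 5.06, 9.99 and 8.39 in 100 ppb mice C, D and F and 9.41, 10.78, 8.92 and 8.53 in control mice A, C, E and F, and Bpifa1, a secreted protein of the upper airway, read 8.16, 13.09 and 11.63 in 100 ppb mice and 12.57, 13.22, 10.59 and 11.04 in controls. In both 100 ppb mouse C was by far the lowest, as for fat and heart muscle markers, while Scgb1a1, the club cell secretoglobin, read 14.21, 14.12 and 14.25 in 100 ppb mice and 14.10, 14.14, 14.05 and 14.15 in controls.

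Of 21 DNA repair genes 14 had a higher mean, with a median of 0.09 (0.05 without control A), 4 wholly above the controls and none wholly below, beside 3.88% and 1.13% of all genes. Xrcc1, a scaffold of single-strand break repair, read 6.80, 7.01 and 6.96 in 100 ppb mice and 6.51, 6.70, 6.40 and 6.65 in controls (difference 0.36, and 0.34 without control A). Foxa2, a factor of lung epithelium, read 8.41, 8.46 and 8.57 in 100 ppb mice and 7.93, 7.99, 8.01 and 8.18 in controls, a difference of 0.45 without overlap (0.42 without control A). Of 26 interferon-stimulated genes 22 had a higher mean with a median of 0.15 and none kept the groups apart. Without control A 23 had a higher mean, the median was 0.09 and 1 lay wholly below the controls, beside 2.31% of all genes. Of 27 genes of the respiratory chain 21 had a lower mean with a median of -0.13, and without control A 14 had a higher mean and the median was 0.00. Eln, which encodes elastin, read 10.72, 8.49 and 9.70 in 100 ppb mice and 8.48, 8.63, 8.05 and 9.21 in controls, with 100 ppb mouse C highest.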
